A study of Rattus norvegicus with 6 samples.

Results

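The genes described here build, move and supervise the mitotic spindle, together with the kinesins that carry cargo. They were taken by symbol from a count table of INS-1 cells. Taken were all genes whose symbol begins with Kif, Cenp, Aurka or Aurkb in its numbered or lettered forms, and 16 named partners such as Ndc80, Bub1, Plk1, Incenp, Top2a and Mki67. The rule reads symbols only and found 74 genes of the 21553 genes that carry a name. It was chosen, like the roles and further gene lists below, with earlier results of these data known. The counts of the 74 genes came from 225 transcript rows. Of the 74, 66 had enough counts to be tested.

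INS-1 is a line of insulin-secreting cells from a rat insulinoma. In the INS-SMA cells (3 libraries, genotype labelled as overexpression of SMA) a lentivirus carried the gene for α-smooth muscle actin (α-SMA), an actin filament protein of smooth muscle. The INS-MOCK cells (3 libraries) are labelled wild type, and the labels do not say whether they received a virus. Both groups share the line, serum-containing RPMI medium and the passage range 7~15. The labels do not name a promoter or say whether the INS-SMA cells were a single clone or a pool. The libraries are labelled as replicates, and where they did not come from separate cultures the p-values measure only the spread between these libraries.

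A kinesin is a motor protein that uses ATP to walk along microtubules or to take their ends apart. Mitotic kinesins push spindle poles apart, align chromosomes and complete cytokinesis. Transport kinesins carry vesicles, organelles and proteins, and in beta cells kinesin-1 moves insulin granules toward the cell edge. Centromere proteins mark the site on each chromosome where the kinetochore forms, and the NDC80 complex is the kinetochore's grip on the microtubule. Most of these mitotic transcripts are made in G2 and M phase, so their level in a culture depends in part on the share of dividing cells. In bulk RNA, fewer dividing cells and less transcript per dividing cell cannot be told apart.

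Levels are CPM, counts scaled to a common library size, given for INS-SMA libraries 1, 2 and 3 and then INS-MOCK libraries 1, 2 and 3. CPM carries no correction for transcript length, so levels are compared between libraries and not between genes. The labels held up in the transgene, since the human ACTA2 row had 941093, 1141322 and 1139159 counts in INS-SMA and 135, 103 and 167 in INS-MOCK. Libraries held 24719503 to 39608609 counts in INS-SMA and 34471794 to 37466920 in INS-MOCK. Rows without a gene name took 35.8% to 36.7% of them in INS-SMA and 32.7% to 33.0% in INS-MOCK. The beta cell markers (7 of 7 in the table) summed to 3040 to 3783 CPM in INS-SMA and 32588 to 35235 CPM in INS-MOCK, and all 7 fell. Stromal markers (6 of 6 in the table) summed to 11.7 to 13.2 CPM in INS-SMA and 13.7 to 16.9 CPM in INS-MOCK. Of these, Pdgfra was lower and Col3a1 higher in INS-SMA. Lum, Dcn and Col1a2 were at 0 in every INS-MOCK library and below 0.5 CPM in every INS-SMA library. Col1a1 had 1.56, 0.138 and 0.506 CPM in INS-SMA and 0.165, 0 and 0 CPM in INS-MOCK. Of 4 immune markers 2 were in the table, Cd68 and Ptprc, and Ptprc had no counts in INS-MOCK. They summed to 1.63 to 2.16 CPM in INS-SMA and 0.124 to 0.896 CPM in INS-MOCK. The endothelial markers and the 1 acinar and duct marker in the table stayed below 0.25 CPM in all libraries. Mitochondrial genes took 3.51% to 3.82% of named counts in INS-SMA and 7.30% to 8.15% in INS-MOCK. The part of these differences in the results below was not tested.

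Among the members with a role in cell division 25 fell and 1 rose in INS-SMA. Of the 66 tested members 28 fell, 8 rose and 30 did not pass an edgeR adjusted p of 0.05. The comparison called many genes: 27.0% of all 13363 tested genes fell, 28.1% rose, and 55.1% did one or the other. The share of members that rose was thus below that of all genes. All 3 INS-SMA libraries lay below all 3 INS-MOCK libraries in 31 of the 66 members and 4258 of the 13363 tested genes (31.9%). They lay above them in 10 of the 66 members and 4470 of the 13363 tested genes (33.5%). The first share was higher in the members than in all genes, and the second lower. The median log2 fold change (INS-SMA over INS-MOCK) was -0.52 over the tested members and 0.03 over all tested genes. The members with a role in division numbered 45, of which 40 were tested, with a median of -0.96. Their summed level was 1747, 1800 and 1891 CPM in INS-SMA, against 3708, 3943 and 3612 CPM in INS-MOCK. At least 2-fold lower were 16 of these 40, against 1667 of the 13363 tested genes (12.5%).

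**Figure D1:**
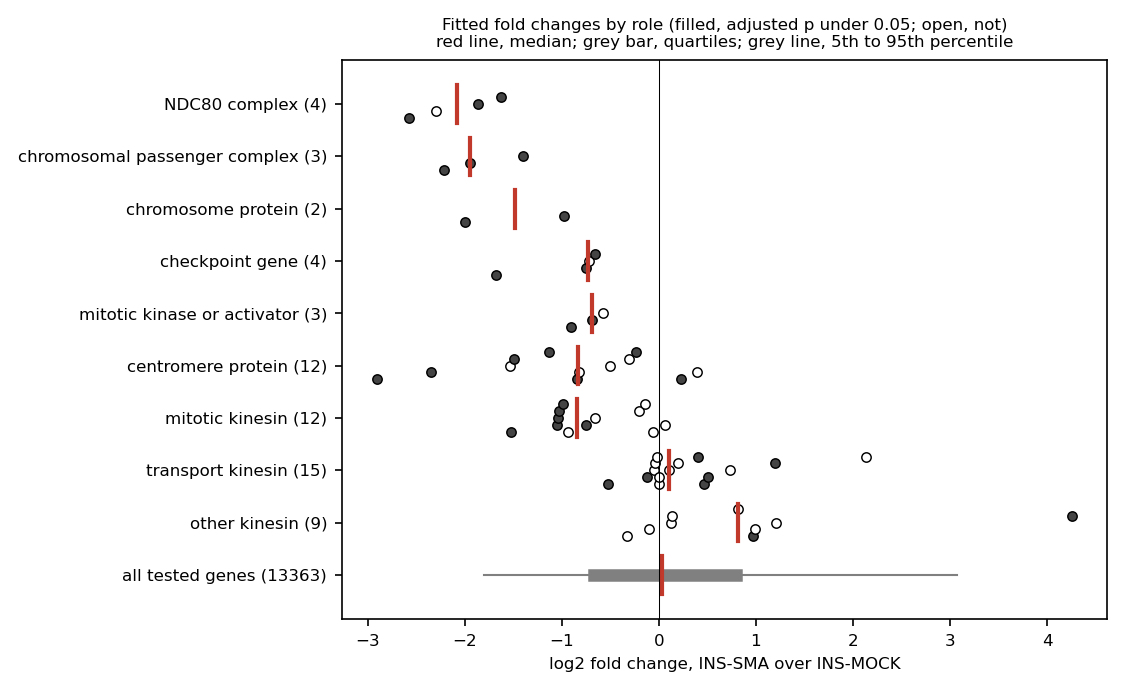
Fitted log2 fold changes of 64 tested members (x axis, INS-SMA over INS-MOCK) by role, with the number tested in parentheses. Filled points passed an edgeR adjusted p of 0.05, open points did not, and red lines are medians. The bottom row gives the quartiles and the 5th and 95th percentiles of all 13363 tested genes, whose median was 0.03. NDC80 and chromosomal passenger genes lie left of -1, transport kinesins lie on both sides of 0, and Kif26b stands at 4.26.

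No mitotic kinesin rose, while transport kinesins were called in both directions. Of 13 mitotic kinesins 12 were tested, 6 fell (50%) and 0 rose, and the median log2 fold change was -0.84. Kif2a, a depolymerase of neurons and spindles, was counted among the other kinesins and not here (log2 fold change 0.13, edgeR adjusted p = 0.531). Of 16 transport kinesins 15 were tested, 4 rose (26.7%) and 2 fell (13.3%), with a median of 0.11. The share of transport kinesins that rose was thus near the 28.1% of all tested genes, and the share that fell was below the 27.0% of all tested genes. Summed mitotic kinesin transcripts were at 683, 689 and 739 CPM in INS-SMA and 1087, 1170 and 1063 CPM in INS-MOCK. Summed transport kinesins were at 1699, 1890 and 1617 CPM in INS-SMA and 1674, 1674 and 1650 CPM in INS-MOCK, so the groups overlapped. The ratio of mitotic to transport transcripts within a library, which no scaling of libraries can alter, was 0.402, 0.365 and 0.457 in INS-SMA and 0.650, 0.699 and 0.644 in INS-MOCK. The groups did not overlap in that ratio, and no test was made of it.

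Promoters of cell cycle genes often hold a cell cycle genes homology region, the element bound by the LIN54 subunit of the DREAM complex, which represses these genes outside division. A CCAAT box, bound by the activator NF-Y, often lies upstream of it. The 100 bases before the start site are shown for 6 mitotic kinesins and for 3 transport kinesins, to set both classes side by side. Those shown with the homology region, Kif22, Kif15, Kif20a and Kif11, fell, and those shown without it, Kif18a and Kif18b, did not pass the test. Kifc1, Cenpe and Kif23 are not shown, hold the region in these 100 bases and did not pass, so the selection does not stand for all mitotic kinesins. Sequences are RefSeq, build GRCr8, read 5′ to 3′ on the strand of the gene. Capitals mark TTTGAA or TTTAAA (the homology region, also read as TTCAAA from the other strand) and CCAAT (also read as ATTGG).
Kif22: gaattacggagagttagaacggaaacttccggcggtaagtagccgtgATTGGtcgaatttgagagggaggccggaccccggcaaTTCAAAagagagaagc
Kif15: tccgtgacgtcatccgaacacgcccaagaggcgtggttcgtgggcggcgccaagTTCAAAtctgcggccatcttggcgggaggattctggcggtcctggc
Kif20a: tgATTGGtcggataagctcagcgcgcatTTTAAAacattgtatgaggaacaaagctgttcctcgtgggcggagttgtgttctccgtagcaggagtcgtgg
Kif11: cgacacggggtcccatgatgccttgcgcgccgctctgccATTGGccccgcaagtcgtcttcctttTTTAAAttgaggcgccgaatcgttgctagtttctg
Kif18a: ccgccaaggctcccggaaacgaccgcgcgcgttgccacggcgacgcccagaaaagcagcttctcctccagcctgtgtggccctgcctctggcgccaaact
Kif18b: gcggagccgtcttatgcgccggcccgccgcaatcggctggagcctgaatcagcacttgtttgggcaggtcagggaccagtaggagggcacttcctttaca
Kif5b: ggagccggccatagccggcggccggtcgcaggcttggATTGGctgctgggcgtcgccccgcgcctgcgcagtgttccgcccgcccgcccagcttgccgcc
Kif3c: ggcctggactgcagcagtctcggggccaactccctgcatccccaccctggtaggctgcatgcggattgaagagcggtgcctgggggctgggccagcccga
Kif1b: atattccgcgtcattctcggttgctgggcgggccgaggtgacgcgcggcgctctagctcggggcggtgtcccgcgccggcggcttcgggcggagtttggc

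These windows lie at chr1:191080879-191080978 (Kif22, minus strand), chr8:131479304-131479403 (Kif15, plus), chr18:26504322-26504421 (Kif20a, plus), chr1:244536767-244536866 (Kif11, plus), chr3:116218907-116219006 (Kif18a, plus) and chr10:88389692-88389791 (Kif18b, minus). The transport windows lie at chr17:56185286-56185385 (Kif5b, plus), chr6:32086779-32086878 (Kif3c, plus) and chr5:165025849-165025948 (Kif1b, minus). A longer window of 300 bases, from 250 before to 50 after the start, was held for 60 of the 74 members and for 27457 genes in all. The homology region occurred in it in 10 of 12 mitotic kinesins (83.3%) and in 0 of 11 transport kinesins, against 27.9% of all genes with a window. Within the 100 bases before the start it occurred in 8 of the 12 (66.7%) and 0 of the 11, against 9.62% of all genes. CCAAT occurred in the longer window in 8 of 12 mitotic kinesins (66.7%) and 3 of 11 transport kinesins (27.3%), against 37.7% of all genes. The E2F core, searched as GCGGGAA and GCGCGAA on both strands, occurred in 2 of 12 (16.7%) and 0 of 11, against 5.88%. In the members' windows 1 pair of matches to different motifs overlapped.

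**Figure D2:**
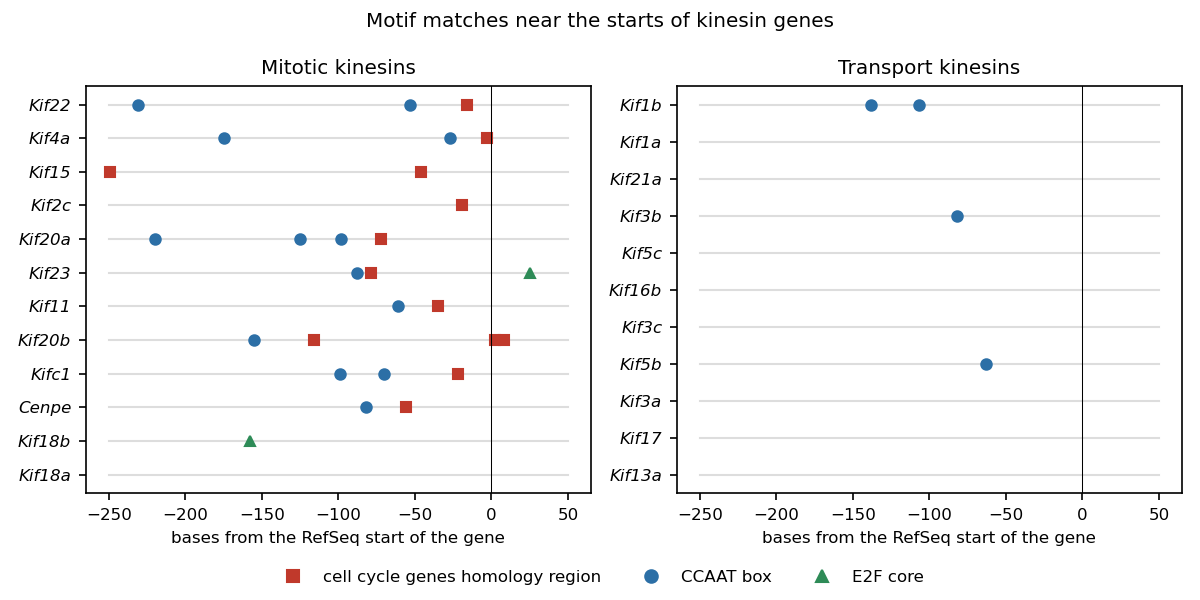
Positions of motif matches (x axis, bases from the RefSeq start) in the promoter windows of mitotic and transport kinesins, 1 gene per line. Homology region matches appear in 10 of the 12 mitotic kinesins and in none of the 11 transport kinesins with a window, and Kif18a and Kif18b have none.

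Both mitotic kinesins without a homology region in the window, Kif18a and Kif18b, were among those that did not pass the test, and all 6 mitotic kinesins that fell hold one. Kifc1, Cenpe, Kif20b and Kif23 hold one too and did not pass. Over all division roles 21 of the 25 genes that fell have a window, and the region occurred in 18 of those 21 (85.7%), against 10 of the 15 tested genes that did not fall (66.7%). Kif26b, which rose, also holds one. Kif2a, counted among the other kinesins, has none in its window and did not pass. Over all division roles, CCAAT occurred in 11 of the 21 windows of genes that fell (52.4%) and in 9 of the 15 others (60%). The E2F core occurred in 2 of the 21 (9.52%) and 6 of the 15 (40%). Whether any motif goes with a fall was not tested. A match is a string of letters in a window and not a measured binding site.

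Kif22, known as Kid, is the motor on chromosome arms that pushes them toward the spindle equator, and it fell furthest among the mitotic kinesins. It had 35.1, 33.0 and 42.1 CPM in INS-SMA, against 107, 107 and 103 CPM in INS-MOCK. Every INS-SMA library was less than 50 CPM and every INS-MOCK library more than 100 CPM. The fitted log2 ratio, or log2 fold change, was -1.53 (SE 0.10, edgeR adjusted p = 9.31e-05). The gene lies at chr1:198461169-198476476 on the minus strand in the deposited coordinates (rn6 is the only rat build named).

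Kif20a, the motor that brings regulators to the midzone and midbody for cytokinesis, had 65.4, 67.1 and 73.6 CPM in INS-SMA and 139.6, 137 and 133 CPM in INS-MOCK. The groups were far apart (log2 fold change -0.99, SE 0.06, edgeR adjusted p = 5.65e-05). Kif11, the Eg5 motor that slides antiparallel microtubules to separate the poles, had 143, 168 and 168 CPM in INS-SMA and 263, 279 and 262 CPM in INS-MOCK. Its fitted log2 ratio was -0.75 (SE 0.08, edgeR adjusted p = 0.000489). INS-SMA library 1 was the lowest of the 6 and no library of either group crossed over.

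Kif4a, Kif15 and Kif2c fell by about the same amount. Kif4a, a chromosome-bound motor that limits midzone microtubule growth, averaged 53.3 ± 5.12 CPM in INS-SMA and 110.1 ± 4.02 CPM in INS-MOCK (SD, n = 3 each). Kif15, a motor that backs up Kif11 in spindle bipolarity, averaged 20.0 ± 2.09 CPM in INS-SMA and 41.1 ± 0.880 CPM in INS-MOCK. Kif2c, or MCAK, takes microtubule ends apart and frees wrong attachments at centromeres. It averaged 33.3 ± 2.97 CPM in INS-SMA and 68.2 ± 3.64 CPM in INS-MOCK. Their log2 fold changes were -1.05, -1.04 and -1.03 (edgeR adjusted p = 0.000178, 0.000354 and 0.000237).

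The remaining mitotic kinesins did not pass. Cenpe, the long kinetochore motor that carries chromosomes to the equator, had 84.7, 92.2 and 102 CPM in INS-SMA and 106, 101 and 102 CPM in INS-MOCK (log2 fold change -0.15, SE 0.08, edgeR adjusted p = 0.162). Kifc1, a minus-end motor that focuses spindle poles, had 104, 93.8 and 109 CPM in INS-SMA and 117, 111 and 125 CPM in INS-MOCK (log2 fold change -0.20, SE 0.08, edgeR adjusted p = 0.0673). The groups overlapped for Cenpe and did not for Kifc1. Leaving out INS-SMA library 3 brought Cenpe to an adjusted p of 0.0330, DESeq2 gave Kifc1 0.0452, and a fit with the replicate number as a block gave Kifc1 0.0242 (log2 fold change -0.20).

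Kif18a dampens chromosome oscillations by capping microtubule plus ends. It had 42.6, 41.1 and 46.0 CPM in INS-SMA and 44.9, 38.6 and 40.4 CPM in INS-MOCK. Kif18b, which shortens astral microtubules, had 62.1, 64.9 and 70.9 CPM in INS-SMA and 69.7, 66.6 and 70.5 CPM in INS-MOCK. Their groups overlapped, with log2 fold changes of 0.07 (SE 0.08, edgeR adjusted p = 0.552) and -0.06 (SE 0.06, edgeR adjusted p = 0.457). The sign for Kif18b turned to 0.029 without normalization factors. Kif20b and Kif23, both cytokinesis motors, varied too much within a group to read, as Kif20b ran from 1.09 to 28.7 CPM within INS-SMA and from 1.07 to 80.1 CPM within INS-MOCK (edgeR adjusted p = 0.775 for Kif20b and 0.645 for Kif23). The log2 fold change of Kif20b was -0.66 with all libraries and 2.50 without INS-MOCK library 2. Kif2b had 2 counts in all and was not tested.

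**Figure D3:**
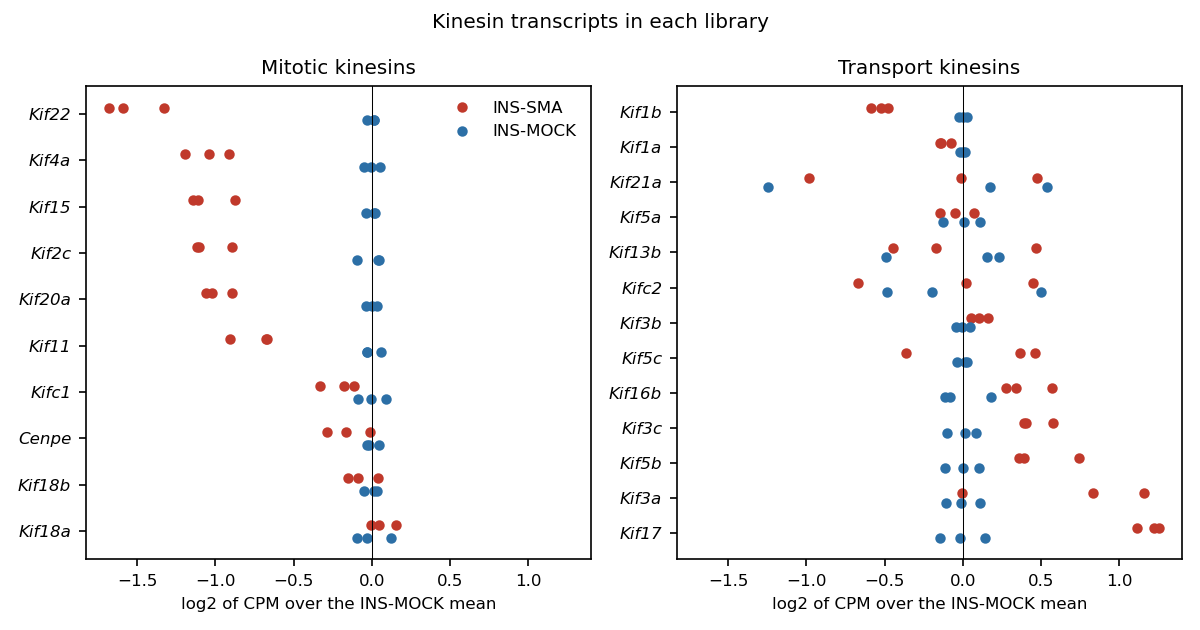
Each library's CPM over the INS-MOCK mean (x axis, log2) for the mitotic and transport kinesins whose libraries within a group spanned less than 4-fold and held no 0. INS-SMA points lie left of every INS-MOCK point for Kif22, Kif4a, Kif15, Kif2c, Kif20a and Kif11, with Kif22 furthest left, and near 0 for Kif18a and Kif18b, and transport kinesins lie on both sides of 0.

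Kinesin-1 heavy chains carry vesicles along axons and toward the cell surface. The ubiquitous one, Kif5b, had 441, 563 and 432 CPM in INS-SMA and 361, 338 and 311 CPM in INS-MOCK. It rose by 0.51 log2 units (SE 0.12, edgeR adjusted p = 0.0145), with INS-SMA library 2 the highest and no overlap. Its neuronal relatives were not called. Kif5c had 245, 262 and 149 CPM in INS-SMA and 186, 192 and 194 CPM in INS-MOCK (log2 fold change 0.20, SE 0.21, edgeR adjusted p = 0.482). INS-SMA library 3 alone lay below the INS-MOCK range, and without it the log2 fold change was 0.41 (adjusted p = 0.00225). Kif5a averaged 23.4 ± 1.75 CPM in INS-SMA and 24.0 ± 1.99 CPM in INS-MOCK.

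Kinesin-3 motors carry synaptic vesicle precursors and dense-core granules. Kif1b had 253, 273 and 265 CPM in INS-SMA and 373, 380.1 and 386 CPM in INS-MOCK (log2 fold change -0.53, SE 0.04, edgeR adjusted p = 0.000140). Kif1a had 398, 415 and 396 CPM in INS-SMA and 433, 442 and 437 CPM in INS-MOCK (log2 fold change -0.12, SE 0.03, edgeR adjusted p = 0.0206). These were the 2 transport kinesins that fell. The Kif1a call was lost without INS-SMA library 1 or 3 or INS-MOCK library 2 or 3 (adjusted p 0.0529 to 0.0632), and without normalization factors its fold change was -0.026 (adjusted p = 0.466). Kif16b, an endosome motor of the same family, averaged 23.5 ± 2.54 CPM in INS-SMA and 17.8 ± 2.04 CPM in INS-MOCK (log2 fold change 0.40, SE 0.13, edgeR adjusted p = 0.0486). That call was lost without any 1 INS-SMA library or INS-MOCK library 2 or 3 (adjusted p 0.0597 to 0.137).

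Kinesin-2 motors serve cilia and late endosomes. Kif17, the homodimeric member, had 8.35, 7.75 and 8.56 CPM in INS-SMA and 3.96, 3.54 and 3.25 CPM in INS-MOCK, the largest rise among transport kinesins that passed. It rose by 1.20 log2 units (SE 0.16, edgeR adjusted p = 0.00161). Kif3c averaged 81.5 ± 6.01 CPM in INS-SMA and 59.2 ± 3.81 CPM in INS-MOCK (log2 fold change 0.46, SE 0.08, edgeR adjusted p = 0.00405). Kif3b was at 201 ± 7.52 CPM in INS-SMA and 186 ± 5.82 CPM in INS-MOCK, without a call (log2 fold change 0.11, edgeR adjusted p = 0.0867). It was called under 5 of 13 alternatives, among them without INS-MOCK library 3 (adjusted p = 0.0349) and with DESeq2 (0.00387). Kif3a was at 1.28 to 2.88 CPM in INS-SMA and 1.20 to 1.39 CPM in INS-MOCK (log2 fold change 0.73, edgeR adjusted p = 0.129). Without INS-SMA library 3 Kif3a was called (log2 fold change 1.00, adjusted p = 0.0319), and without INS-SMA library 1 the fold change was 0.47. The transport kinesins not yet described, Kif13b, Kif21a, Kif21b, Kifc2 and Kifc3, did not pass either (edgeR adjusted p 0.326 to 0.994), and Kif13a was not tested. INS-SMA library 1 decided the value for Kifc3, with a log2 fold change of 2.13 with it and -0.026 without it.

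Of 9 other kinesins 2 rose (22.2%) and 0 fell, against 28.1% and 27.0% of all tested genes. Kif26b, a kinesin without motor activity that acts in cell adhesion in mouse, had 6.97, 8.08 and 5.64 CPM in INS-SMA and 0.496, 0.224 and 0.342 CPM in INS-MOCK. It rose by 4.26 log2 units (SE 0.37, edgeR adjusted p = 0.000273). Kif7, the ciliary regulator of Hedgehog signalling, had 27.8, 29.5 and 30.0 CPM in INS-SMA and 15.1, 14.6 and 14.9 CPM in INS-MOCK (log2 fold change 0.97, SE 0.08, edgeR adjusted p = 0.000222). All INS-SMA libraries were higher than all INS-MOCK libraries for both genes. Kif2a, a microtubule depolymerase of neurons and spindles, had 20.1, 18.4 and 14.0 CPM in INS-SMA and 15.4, 15.6 and 16.9 CPM in INS-MOCK and did not pass (log2 fold change 0.13, edgeR adjusted p = 0.531). Kif19, a depolymerase of cilium tips, had 10.5, 5.69 and 6.69 CPM in INS-SMA and 9.13, 5.42 and 14.3 CPM in INS-MOCK (log2 fold change -0.33, edgeR adjusted p = 0.549). Kif26a had 15.1, 20.8 and 18.2 CPM in INS-SMA and 39.1, 11.2 and 7.86 CPM in INS-MOCK, where library 1 stood apart. Its log2 fold change of -0.10 (edgeR adjusted p = 0.907) turned to 0.93 (adjusted p = 0.0289) without that library. Kif9, Kif12, Kif24 and Kif27 did not pass (edgeR adjusted p 0.0895 to 0.891), though DESeq2 gave Kif9 an adjusted p of 0.0406 and Kif12 was called without INS-MOCK library 3 (log2 fold change 1.38 against 0.81 with all libraries, adjusted p = 0.0484).

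Of the 4 genes of the NDC80 complex 3 fell (75%), against 27.0% of all tested genes. Ndc80, the microtubule-binding subunit, had 22.2, 26.8 and 26.6 CPM in INS-SMA and 72.5, 83.6 and 77.6 CPM in INS-MOCK (log2 fold change -1.63, SE 0.10, edgeR adjusted p = 8.03e-05). Its partner Nuf2 had 20.1, 21.2 and 19.6 CPM in INS-SMA and 73.1, 75.8 and 73.3 CPM in INS-MOCK (log2 fold change -1.87, SE 0.06, edgeR adjusted p = 9.60e-06). For both genes every INS-SMA library lay far below every INS-MOCK library. Spc25, at the centromere end of the complex, had 6.01, 7.98 and 9.80 CPM in INS-SMA and 45.2, 49.3 and 47.2 CPM in INS-MOCK (log2 fold change -2.57, SE 0.20, edgeR adjusted p = 0.000160). Its partner Spc24 had 1.74, 1.79 and 0 CPM in INS-SMA and 2.81, 4.98 and 9.49 CPM in INS-MOCK and did not pass (log2 fold change -2.30, SE 1.33, edgeR adjusted p = 0.202). A library floor of 3 counts is 0.117 to 0.180 CPM. By counting error alone, the 0 in INS-SMA library 3 allows a level of up to 0.117 CPM. Libraries of a group differed by more than counting error, so this is not an upper bound on the level.

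The NDC80 genes differ in where the homology region lies. Spc25 alone of the 4 holds it in the 100 bases before the start, Ndc80 and Nuf2 hold it 27 to 34 bases after the start, and Spc24 has none in its window. Spc25 and Top2a, which also holds it before the start, are shown for that reason, and these windows at chr3:74396719-74396818 and chr10:84473094-84473193 (both minus strand, GRCr8) use capitals in the same way.
Spc25: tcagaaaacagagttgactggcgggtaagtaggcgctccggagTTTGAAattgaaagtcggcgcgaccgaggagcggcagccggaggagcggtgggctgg
Top2a: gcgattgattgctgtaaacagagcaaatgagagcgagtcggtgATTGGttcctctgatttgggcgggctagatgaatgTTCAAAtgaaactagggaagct

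The chromosomal passenger complex moves from centromeres to the midzone and corrects attachments. Its kinase Aurkb (chr10:55626741-55634991, plus strand) had 24.6, 23.6 and 22.1 CPM in INS-SMA and 109.6, 112 and 105 CPM in INS-MOCK. The fitted log2 ratio was -2.22 (SE 0.06, edgeR adjusted p = 7.16e-06), and the libraries of each group lay close together. Birc5, or survivin, which docks the complex on chromatin, had 10.1, 9.04 and 11.5 CPM in INS-SMA and 35.2, 39.8 and 42.8 CPM in INS-MOCK (log2 fold change -1.94, SE 0.13, edgeR adjusted p = 0.000112). Incenp, the scaffold, had 63.9, 64.1 and 69.3 CPM in INS-SMA and 169, 172 and 181 CPM in INS-MOCK (log2 fold change -1.40, SE 0.05, edgeR adjusted p = 1.49e-05). All 3 genes fell, against 27.0% of all tested genes, and the lowest INS-MOCK value was above the highest INS-SMA value for each.

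Top2a, the topoisomerase that untangles sister chromatids (chr10:86901007-86932154, minus strand), had 193, 227 and 246 CPM in INS-SMA and 869.7, 913 and 873 CPM in INS-MOCK. Its fitted log2 ratio was -1.99 (SE 0.10, edgeR adjusted p = 3.07e-05). Mki67, the coat protein of mitotic chromosomes and the usual stain for dividing cells, had 206, 194 and 225 CPM in INS-SMA and 403, 448 and 385 CPM in INS-MOCK. Its fitted log2 ratio was -0.98 (SE 0.08, edgeR adjusted p = 0.000217). Both genes were well separated between the groups on their summed rows.

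**Figure D4:**
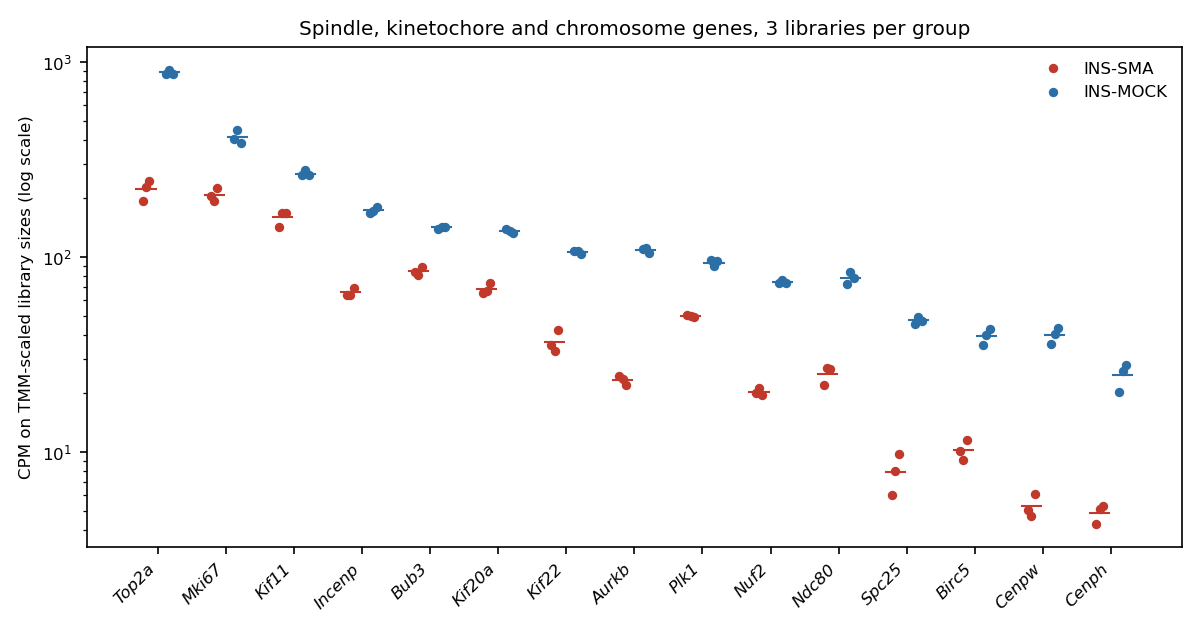
CPM (log axis) of named spindle, kinetochore and chromosome genes in the 3 libraries of each group. INS-SMA points lie below INS-MOCK points for Aurkb, Birc5, Incenp, Ndc80, Nuf2, Spc25, Top2a and Mki67.

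Spindle checkpoint genes delay anaphase until every kinetochore is attached. Mad2l1, the diffusible inhibitor of anaphase, had 1.50, 2.34 and 2.68 CPM in INS-SMA and 6.03, 7.13 and 7.78 CPM in INS-MOCK (log2 fold change -1.68, SE 0.28, edgeR adjusted p = 0.00361). Bub3, which docks checkpoint kinases on kinetochores, had 83.6, 80.5 and 89.1 CPM in INS-SMA and 139, 143 and 143 CPM in INS-MOCK (log2 fold change -0.75, SE 0.05, edgeR adjusted p = 8.76e-05). Each was lower in every INS-SMA library. Ttk, the Mps1 kinase that starts the signal, had 22.7, 25.3 and 23.5 CPM in INS-SMA and 38.2, 38.8 and 36.0 CPM in INS-MOCK (log2 fold change -0.66, SE 0.08, edgeR adjusted p = 0.000894). Bub1 had 0, 1.19 and 2.96 CPM in INS-SMA and 2.97, 2.29 and 1.67 CPM in INS-MOCK and did not pass (log2 fold change -0.72, edgeR adjusted p = 0.655). Bub1b had counts in a single library, 115 in INS-SMA library 3, and was not tested.

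Plk1, the kinase that drives mitotic entry, had 50.5, 49.6 and 49.3 CPM in INS-SMA and 95.9, 89.4 and 95.6 CPM in INS-MOCK (log2 fold change -0.91, SE 0.05, edgeR adjusted p = 4.16e-05). Tpx2, which targets and activates Aurora A on the spindle, had 108, 113 and 124 CPM in INS-SMA and 193, 188 and 176 CPM in INS-MOCK (log2 fold change -0.69, SE 0.07, edgeR adjusted p = 0.000420). No library of either gene reached the range of the other group. Plk4, the kinase of centriole copying, had 16.5, 2.62 and 33.8 CPM in INS-SMA and 77.2, 0.807 and 1.07 CPM in INS-MOCK, and INS-MOCK library 1 decided its sign, with a log2 fold change of -0.58 (edgeR adjusted p = 0.816) with it and 4.23 (adjusted p = 0.0463) without it. Aurka itself had 2 counts in every INS-SMA library and 7 to 11 in the INS-MOCK libraries, too few to test.

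Centromere proteins did not all move. Of 14, 12 were tested, 6 fell (50%) and 1 rose (8.33%), against 27.0% and 28.1% of all tested genes. Their median log2 fold change was -0.83. Cenpw, a histone-fold partner of Cenpt, had 5.05, 4.68 and 6.07 CPM in INS-SMA and 35.6, 40.1 and 43.0 CPM in INS-MOCK, the largest fall of all members (log2 fold change -2.91, SE 0.15, edgeR adjusted p = 3.62e-05). Cenpu, which binds Plk1, had 10.8, 10.6 and 9.10 CPM in INS-SMA and 27.7, 29.3 and 28.6 CPM in INS-MOCK (log2 fold change -1.49, SE 0.11, edgeR adjusted p = 0.000121). These and Cenph, of the inner kinetochore network, had groups with no overlap. Cenph averaged 4.87 ± 0.529 CPM in INS-SMA and 24.8 ± 3.95 CPM in INS-MOCK (log2 fold change -2.35, SE 0.18, edgeR adjusted p = 0.000150). Cenpt, the anchor that recruits NDC80, fell by 1.13 log2 units (SE 0.12, edgeR adjusted p = 0.000569).

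Cenpn and Cenpc, which read the centromeric nucleosome, gave small opposite changes on their summed rows. Cenpn had 48.7, 47.3 and 54.4 CPM in INS-SMA and 44.1, 43.2 and 41.0 CPM in INS-MOCK (log2 fold change 0.23, SE 0.08, edgeR adjusted p = 0.0476). Cenpc had 55.7, 61.8 and 59.5 CPM in INS-SMA and 65.9, 75.0 and 67.4 CPM in INS-MOCK (log2 fold change -0.23, SE 0.07, edgeR adjusted p = 0.0399). The Cenpn call was lost without any 1 library (adjusted p 0.0519 to 0.108), yet on its most abundant row Cenpn rose by 1.40 (adjusted p = 0.000247). That row held 2758 counts over the INS-SMA libraries and 1175 over the INS-MOCK libraries, while each of its other 6 rows held fewer in INS-SMA. The Cenpc call was lost without any 1 INS-SMA library or INS-MOCK library 2 or 3 (0.0537 to 0.104) and without normalization factors (0.127). Cenpl fell by 0.84 log2 units (SE 0.24, edgeR adjusted p = 0.0292), a call lost without INS-SMA library 3 or INS-MOCK library 1 or 2 (0.0589 to 0.0745).

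The other centromere proteins did not pass. Cenpa, the centromeric histone itself, had 6.55, 7.48 and 6.88 CPM in INS-SMA and 19.0, 14.4 and 3.68 CPM in INS-MOCK (log2 fold change -0.83, edgeR adjusted p = 0.281). INS-MOCK library 3 was the lowest of the 6, and without it the fold change was -1.26 (adjusted p = 0.00505). Cenpm had 23.7, 23.7 and 22.6 CPM in INS-SMA and 22.8, 34.7 and 29.6 CPM in INS-MOCK (log2 fold change -0.31, edgeR adjusted p = 0.165), and was called without INS-MOCK library 1 (-0.46, adjusted p = 0.0251) and on its most abundant row (-1.61, adjusted p = 0.00926). The other Cenpm row held 999 counts over the INS-SMA libraries and 333 over the INS-MOCK libraries, against 495 in INS-SMA and 1685 in INS-MOCK on the most abundant row. Cenpb, the DNA-binding protein of satellite repeats, had 51.0, 70.4 and 0 CPM in INS-SMA and 0, 92.3 and 0 CPM in INS-MOCK (log2 fold change 0.39, SE 2.80, edgeR adjusted p = 0.920), so no direction could be read. Cenpo averaged 6.98 ± 1.47 CPM in INS-SMA and 9.90 ± 1.34 CPM in INS-MOCK (log2 fold change -0.50, edgeR adjusted p = 0.103). Cenpi averaged 1.55 ± 1.86 CPM in INS-SMA and 4.43 ± 1.93 CPM in INS-MOCK (edgeR adjusted p = 0.266), and was called without INS-SMA library 1 (-3.18, adjusted p = 0.0337).

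Ratios between partners were also taken within each library. The count ratio of Cenpw to Cenpt in each library was 0.560, 0.510 and 0.593 in INS-SMA and 1.77, 2.06 and 1.90 in INS-MOCK. That of Spc25 to Ndc80 was 0.271, 0.298 and 0.369 in INS-SMA and 0.623, 0.589 and 0.608 in INS-MOCK. For Aurkb to Incenp it was 0.384, 0.368 and 0.319 in INS-SMA and 0.650, 0.648 and 0.580 in INS-MOCK. Each of the 3 ratios was lower in every INS-SMA library. These pairs were chosen after their values were seen, so their direction follows from the choice and no test was made.

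The symbols also drew in genes that are not spindle parts. Aurkaip1 encodes a mitochondrial ribosome protein named for binding Aurora A. It had 163, 152 and 143 CPM in INS-SMA and 88.9, 85.0 and 80.8 CPM in INS-MOCK (log2 fold change 0.84, SE 0.07, edgeR adjusted p = 0.000175). Kif1bp, a protein that binds kinesins and holds them off microtubules, had 91.9, 93.1 and 96.4 CPM in INS-SMA and 137, 143 and 137 CPM in INS-MOCK (log2 fold change -0.57, SE 0.04, edgeR adjusted p = 9.77e-05). The 8 members that were not tested were Aurka, Bub1b, Cenpf, Cenpj, Cenpk, Cenpv, Kif13a and Kif2b. Cenpk had no counts in INS-SMA and 39, 3 and 10 in INS-MOCK.

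Many members are split over several rows, and the rows of a gene did not always keep their shares. One Top2a row had 0, 3136 and 0 counts in INS-SMA and 14110, 14130 and 13094 in INS-MOCK, while the other had 3219, 1821 and 6338 in INS-SMA and 6949, 6241 and 7334 in INS-MOCK. Kif18b moved between 3 of its 5 rows even among libraries of 1 group. With the most abundant row of each gene in place of the sum, 18 members fell instead of 28. Calls were then lost for 12 members, all with the sign they had on the summed rows. The log2 fold change was as large or larger on the most abundant row for Top2a (-3.57, adjusted p = 0.331), Kif4a (-1.96, 0.375), Kif2c (-1.63, 0.0887), Kif1a (-0.23, 0.793) and Aurkaip1 (1.93, 0.175). It was -0.63 for Ttk, -0.59 for Tpx2, -0.81 for Cenpt, -0.65 for Cenpl, -0.10 for Cenpc, -0.10 for Kif1b and 0.66 for Kif7, each smaller than on the summed rows (adjusted p 0.0628 to 0.812). Mki67, with 46 rows, turned to 1.81 (adjusted p = 0.0434) on a row that holds 7.93% of its counts. Among division genes with a single row, which cannot be split between named rows, 16 were tested, 10 fell and 0 rose. Over all genes 7445 with a single row were tested, 1886 fell and 1724 rose. Reads of such genes can still lie in rows without a name. Of the 66 tested members 13 varied more than 4-fold or held a 0 within a group, and none of these was called. Spread within a group enters the test, so this follows in part from how the 13 were picked.

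**Figure D5:**
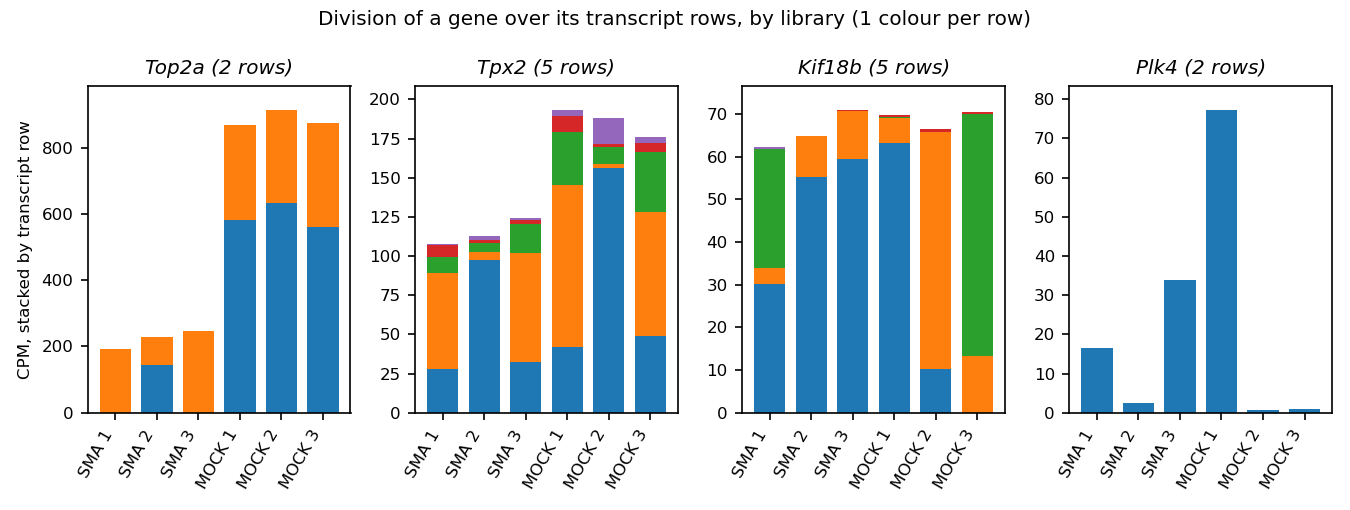
CPM of each transcript row (1 colour per row within a gene, stacked) of Top2a, Tpx2, Kif18b and Plk4 in the 6 libraries. The rows of Kif18b trade places between libraries while their sum stays at 62.1 to 70.9 CPM, and Plk4 reaches 77.2 CPM in INS-MOCK library 1.

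Among mitotic genes outside the rule more fell than rose. Of 72 further genes of the kinetochore, cohesin, condensin, spindle and cytokinesis 65 were in the table and 61 were tested. Of the 61, 29 fell (47.5%) and 3 rose (4.92%), against 27.0% and 28.1% of all tested genes. The median log2 fold change was -0.74. Nusap1, which bundles spindle microtubules near chromatin, averaged 6.16 ± 2.93 CPM in INS-SMA and 105 ± 15.8 CPM in INS-MOCK (log2 fold change -4.09, SE 0.38, edgeR adjusted p = 0.000342). Cdk1, the kinase of mitotic entry, averaged 64.7 ± 3.87 CPM in INS-SMA and 259 ± 6.12 CPM in INS-MOCK (log2 fold change -2.00, SE 0.06, edgeR adjusted p = 7.04e-06). Smc2, of condensin, fell by 1.67 on the log2 scale, Cdca8, the remaining passenger subunit, by 1.36, Prc1, the midzone crosslinker that binds Kif4a, by 1.02, and Cdc20, the activator of anaphase, by 0.96. The 3 that rose were Stag1 of cohesin (0.76), Haus8 of augmin (0.70) and the pole protein Numa1 (0.16, lost without INS-SMA library 3 at an adjusted p of 0.0574). Without INS-SMA library 1 or INS-MOCK library 1, 5 rose.

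Of 37 light chain, adaptor, dynein and dynactin genes, the cargo partners of transport kinesins, 36 were tested, 9 rose (25.0%) and 14 fell (38.9%), with a median log2 fold change of -0.02. The share that rose was near the 28.1% of all tested genes, and the share that fell stands beside 27.0%. The kinesin light chains, which link kinesin-1 to cargo, rose in all 4 genes. The increase was 0.21 for Klc1 (edgeR adjusted p = 0.00492), 0.42 for Klc2 (0.00253), 0.87 for Klc4 (0.00140) and 1.35 for Klc3 (0.00221) on the log2 scale. They kept this sign under each library scaling tried, but Klc1 read -0.065 on its most abundant row. Kifap3, the cargo adaptor of Kif3a and Kif3b, averaged 1.52 ± 0.916 CPM in INS-SMA and 5.75 ± 2.05 CPM in INS-MOCK (log2 fold change -1.92, SE 0.64, edgeR adjusted p = 0.0477), a call lost without INS-SMA library 1 or 2 or any 1 INS-MOCK library (0.0578 to 0.130) and with RLE size factors (0.0505). Dynein, the motor of the opposite direction, had its heavy chain Dync1h1 higher by 0.17 (edgeR adjusted p = 0.0125), and its light intermediate chain Dync1li2 higher by 0.66 (0.0171). The intermediate chain Dync1i1 fell by 1.55, and the 5 light chain genes that fell, Dynlt1, Dynlrb1, Dynll1, Dynlt3 and Dynll2, fell by 0.57 to 1.21. Of 10 dynein genes tested, 2 rose and 6 fell.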

How the data were processed

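RNA sequencing was done on 3 INS-SMA and 3 INS-MOCK libraries. The authors deposited raw counts per transcript row in a column for each library. The submitters' processing notes name HISAT2, HISAT, DESeq2 and the builds hg19 and rn6. What each was used for, how reads were counted, whether strand was used and which annotation served is not given in the sources used here. Reads of overlapping or antisense genes could therefore not be told apart.

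Counts of the 35604 named rows, of 101905 rows in all, were summed per gene. Rows without a name, with 32.7% to 36.7% of the counts, entered neither library sizes nor tests, so a gene's value lacks any of its reads placed there. edgeR 4.0.16 in R 4.3.3 was run with filterByExpr, TMM factors, the quasi-likelihood F-test (glmQLFit and glmQLFTest) with group as the only term, and Benjamini-Hochberg adjustment over 13363 genes at a threshold of 0.05. The SE of a log2 fold change is its size over the square root of F. CPM uses TMM-scaled library sizes. A check on simulated counts, set to stop at any changed gene called with the wrong sign, met none. Far fewer genes were changed in it than were called here, so it does not measure the error rate of these calls. No 2 libraries of a group agreed within sampling noise (chi-square of 45.0 to 58.6 per degree of freedom). Intervals and floors cover counting error only.

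The members, roles and gene lists were chosen with earlier results of these data known. Values per library were given for Aurkb, Top2a and Mki67 and, within each role, for the 4 tested members with the highest mean CPM, the 2 with the smallest adjusted p and any called against the direction of the rest. All other genes were named after their values were seen. Promoter windows came from RefSeq (GRCr8), matched by gene identifier, and motifs were searched on both strands. The 13 alternatives were DESeq2 1.42.0, other scaling, no filter, the most abundant row per gene, a replicate block, each library left out, and library sizes with unnamed rows, the last chosen after seeing the data.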

Additional observations from a re-analysis of the deposited data

How the results depend on the processing

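Of the 36 called members, 21 kept their call and direction under each of the 13 alternatives and 15 lost it under at least 1. Of the 30 without a call 12 gained one somewhere, and 14 of the 66 tested members changed sign somewhere. The most abundant row in place of the summed rows moved most. With it 18 members and 19 other mitotic genes fell, 0 transport kinesins fell, 1 other mitotic gene and 4 transport partners rose, and the log2 fold change turned to 1.81 for Mki67, 1.04 for Kif18b, 1.22 for Kif26a, -0.53 for Haus8 and -0.065 for Klc1. That setting discards the other rows of a gene, as shown for Top2a and Mki67. Without normalization factors 1 transport kinesin fell, 5 other mitotic genes rose and Kif18b read 0.029. With DESeq2 7 other mitotic genes rose. The cause of these shifts was not tested.

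Leaving out 1 library at a time gave 1 to 2 transport kinesins that fell and 2 to 5 other mitotic genes that rose. Members that fell numbered 26 to 29 and members that rose 6 to 9. Signs turned without 1 library for 12 members, and 0 of the 12 were called with all libraries. These were Cenpb (-0.28 without INS-SMA library 2, -0.18 without INS-MOCK library 1 or 3), Kif19 (-0.63 to 0.072, positive without INS-MOCK library 3), Kif26a (-0.48 to 0.93, positive without INS-SMA library 1 or INS-MOCK library 1), Plk4 (-1.47 to 4.23, positive without INS-MOCK library 1), Kif20b (2.50 without INS-MOCK library 2) and Kifc3 (-0.026 without INS-SMA library 1). The other 6, Kif5a, Kif13b, Kif21a, Kif21b, Kif27 and Kifc2, lay between -0.05 and 0.12 with all libraries and turned without 2 to 4 of the libraries.

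Libraries with the same replicate number did not deviate together (correlations of -0.03, -0.01 and -0.03), so the numbers were not taken as pairs. With the replicate block 28 members fell and 6 rose, 7 mitotic kinesins fell, and 2 transport kinesins fell and 3 rose. The block turned Plk4 to 1.52 and Kif26a to 0.28, Kifc1 gained a call (-0.20, adjusted p = 0.0242), and Cenpl, Cenpn and Kif16b lost theirs. Without the low-count filter Cenpc, Cenpn and Kif16b lost their calls. Genes with few counts, such as Aurka, did not pass that filter, and the reason for their few counts was not tested.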
